A study of Sus scrofa with 23 samples.

Results

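MEIS1, MEIS2 and HOXA9 are homeobox genes that pattern the limb, and they were followed here in pig articular cartilage from the forelimb and the hindlimb. The genes were chosen by name: all probe sets that the platform annotation assigns to exactly 1 of these 3 symbols were taken, which gave 5 of the 24123 probe sets of the array. A probe set is a group of short oligonucleotides that together give 1 value per array. MEIS1 and MEIS2 were each read by a brighter and a dimmer probe set, and HOXA9 by 1. Values of MEIS1 and MEIS2 are those of the brighter probe set unless the dimmer one is named. The 3 brighter probe sets passed the filter on low values and were tested.

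MEIS1 and MEIS2 are TALE-class homeodomain proteins that bind DNA together with PBX and HOX proteins. In the limb bud they mark the part nearest the trunk, where retinoic acid maintains them, while the enzyme CYP26A1 breaks retinoic acid down. HOXA9 belongs to the HOXA cluster, whose genes are switched on in an ordered way along the limb axis. The humerus and the femur are the upper bones of the forelimb and the hindlimb, so both sites correspond to the same limb segment.

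Messenger RNA was measured with the Affymetrix Porcine Genome Array in pigs of a cross between Duroc and Pietrain. The cartilage came from the medial humeral condyle at the elbow or the medial femoral condyle at the knee, of animals that were affected or non-affected by osteochondrosis, a disorder of growing joint cartilage. No agent or engineered allele is named for any group, and ages were not used here. The 23 arrays were reduced to 21 samples: 4 of non-affected femur, 4 of affected femur, 6 of non-affected humerus and 7 of affected humerus. Femur non-affected 1 and 2, and humerus affected 5 and 6, were each averaged, because their arrays differed by an SD of only 0.21 and 0.11 on the log2 scale, against 0.34 for the next closest pair of a group. Affected and non-affected animals were sib-pairs according to the design text. The labels do not say which animals were sibs or that samples came from separate animals, and p-values here reflect no more than how these samples vary.

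The cartilage markers COL2A1, ACAN, SOX9, COMP, COL11A1 and HAPLN1 were above the floor of the table in every sample, and the log2 of their summed signal was 14.7 to 15.3 in the femur and 14.7 to 15.5 in the humerus. Of these 6, 1 was called higher and 2 lower in the femur over both statuses, 0 and 3 in non-affected samples and 2 and 0 in affected samples, while 0 were called for site by status. Of all tested probe sets, 17.6% were higher and 34.2% lower over both statuses. These shares were 11.6% and 25% in non-affected samples and 13.9% and 24.6% in affected samples, and 0.268% were called for site by status. Markers of other tissues differed between the sites. The bone list (5 genes measured, among them IBSP and ALPL) summed to 11.3 to 12.6 in the femur and 12.03 to 15.2 in the humerus, with 0 genes called higher and 4 lower in the femur over both statuses and 0 and 2 in non-affected samples (0 and 3 without humerus non-affected 5, a library that stood apart from its group). The myeloid list (5 measured) summed to 7.33 to 11.8 in the femur and 8.65 to 13.2 in the humerus, with 0 higher and 4 lower over both statuses and 0 called in non-affected samples. Over both statuses, with 51.8% of all probe sets called, all 3 osteoclast genes, all 4 neutrophil genes, all 3 tested endothelial genes, 4 of 5 tested genes of fibroblast and synovium and 1 of 2 erythroid genes were also lower in the femur, while 4 of 5 tested skeletal muscle genes were higher and 2 of the 4 adipocyte genes were higher and 2 lower. In non-affected samples, with 36.6% of all probe sets called, 1 osteoclast, 1 fibroblast and synovium and 1 erythroid gene were lower. There 0 neutrophil and 0 endothelial genes were called, 1 muscle gene was higher, and 2 adipocyte genes were higher and 1 lower. Leaving out humerus non-affected 5 gave 3 muscle genes higher over both statuses, and in non-affected samples 3 fibroblast and synovium, 1 endothelial and 2 adipocyte genes lower; the other counts of these lists in both comparisons were as before. Bacterial RNAs that are added as hybridisation controls (BioB and BioC) averaged 10.05 to 10.3 on femoral arrays and 8.48 to 8.92 on humeral arrays with no overlap, so site and whatever set the level of these controls cannot be told apart.

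One sample stood apart from its label. On the first principal component of all tested probe sets, which separated the sites, the library labelled humerus non-affected 5 lay at 29.0, within the femoral range of 26.9 to 58.4 and away from the other humeral samples at -53.2 to -0.80. Its hybridisation controls, at 8.92, lay in the humeral range. The members' site comparisons that include it, the shares called and the counts of gene lists over both statuses and in non-affected samples are given with and without it where they differ.

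MEIS2 was the member that differed most between the joints. On the log2 scale of the table, whose floor is 4, the brighter probe set read 7.08, 7.58, 7.62 and 8.13 in the non-affected femur and 7.57, 7.65, 7.75 and 8.73 in the affected femur. In the non-affected humerus it ran from 5.74 over a median of 6.27 to 8.64, and in the affected humerus from 5.56 over a median of 6.03 to 7.22. All 8 femoral samples lay above the humeral median, and the humeral samples that reached the femoral range were humerus non-affected 5, at 8.64, and humerus affected 7, at 7.22. The 4 affected femoral samples lay above all 7 affected humeral samples. The share of all tested probe sets that separate the joints in this way was not computed. The group means were 7.60 ± 0.43 (SD, n = 4) in non-affected femur, 7.92 ± 0.54 (SD, n = 4) in affected femur, 6.53 ± 1.06 (SD, n = 6) in non-affected humerus and 6.20 ± 0.55 (SD, n = 7) in affected humerus. Ordered by level, affected femur, non-affected femur, non-affected humerus and affected humerus, only the step from femur to humerus exceeded the pooled SD of the neighbouring groups. The SD of the non-affected humerus rested on 1 sample: without humerus non-affected 5 its mean was 6.11 ± 0.25 (SD, n = 5).

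**Figure D1:**
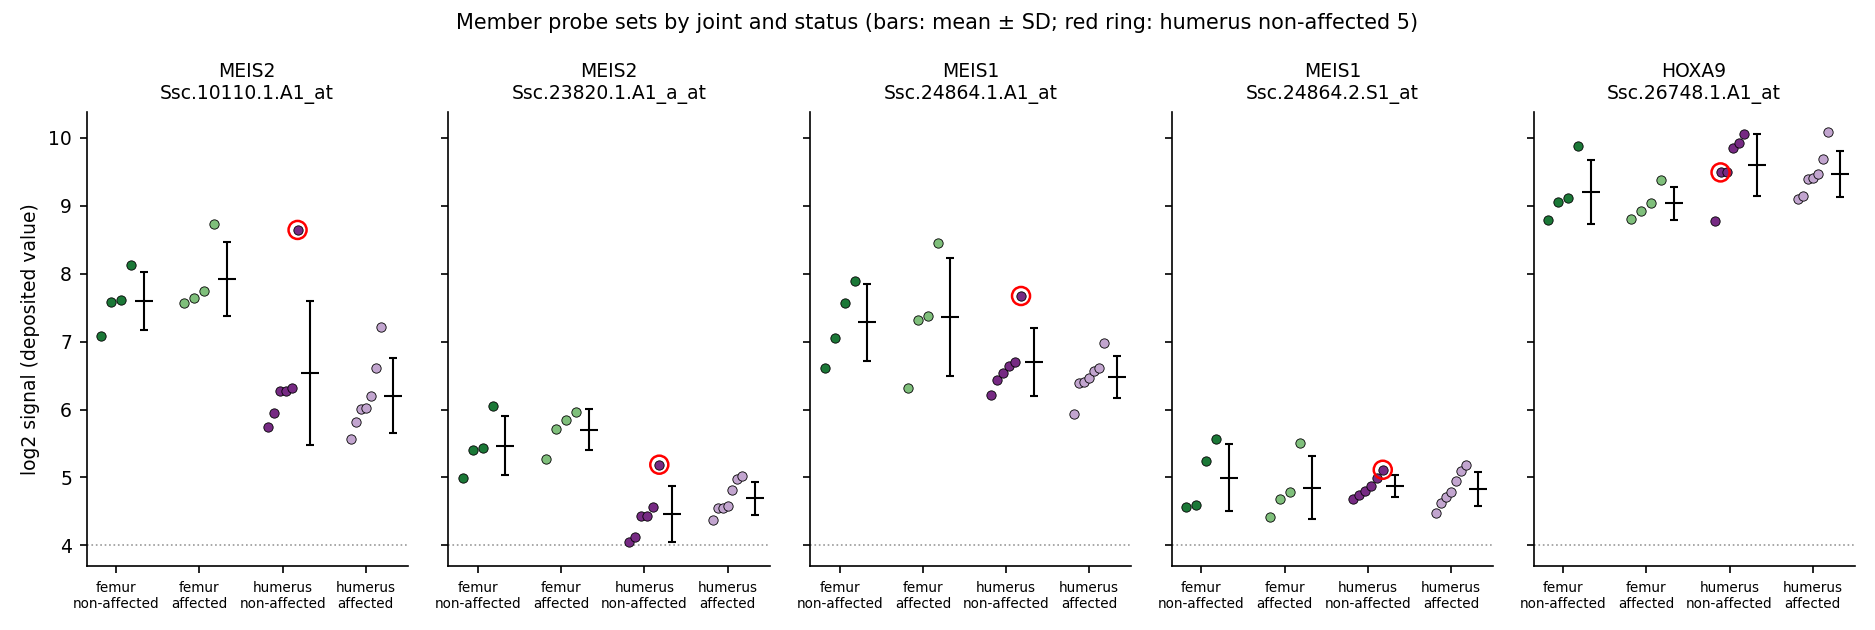
Deposited log2 signal of the 5 probe sets of MEIS2, MEIS1 and HOXA9 in 21 samples, by joint and status; each point is a sample, bars are mean ± SD and the dotted line is the floor at 4. For both probe sets of MEIS2 the femoral samples sit above most humeral samples, and the ringed sample, humerus non-affected 5, reads 8.64 for the brighter one.

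Over both statuses, MEIS2 signal was 2.64-fold higher in the femur than in the humerus, a log2 difference of 1.40 ± 0.30 (SE), with a 95% confidence interval of 0.78 to 2.03 and an adjusted p of 7.14e-04 by limma. In bulk tissue, fewer cells of a type and less RNA per cell cannot be told apart. MEIS1 was also higher in the femur, by 0.74 ± 0.23 (SE) or 1.67-fold, with an adjusted p of 0.0100. HOXA9 was lower in the femur, with a difference of -0.41 ± 0.16 (SE) and an adjusted p of 0.0395. All 3 member probe sets that were tested thus passed an adjusted p of 0.05, but so did 51.8% of the 16799 probe sets tested, 17.6% higher and 34.2% lower in the femur, so a call by itself sets the members little apart. By absolute size, the difference of MEIS2 ranked 541, that of MEIS1 2676 and that of HOXA9 6579 among the probe sets tested.

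The level to which the arrays are scaled bears on HOXA9. The median difference of all tested probe sets was -0.12, and with every array set to the same median it was 0.05, with 4907 probe sets called higher and 3760 lower in place of 2963 and 5744. Under that scaling the difference of HOXA9 was -0.24 with an adjusted p of 0.218, and under quantile normalisation -0.29 with 0.136, so the call of HOXA9 was lost. MEIS2, at 1.57 with an adjusted p of 2.80e-04, and MEIS1, at 0.91 with 0.00256, kept theirs under equal medians.

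In the non-affected samples alone, the difference between femur and humerus was 1.07 ± 0.43 (SE) for MEIS2, with a confidence interval of 0.17 to 1.97 and an adjusted p of 0.0576. That of MEIS1 was 0.58 ± 0.33 (SE) with 0.172, and that of HOXA9 was -0.40 ± 0.24 (SE) with 0.202. Of the 3 members, 0 passed the threshold by limma in a comparison in which 36.6% of probe sets did (11.6% higher and 25% lower), and the unadjusted p was 0.0221 for MEIS2, 0.0924 for MEIS1 and 0.114 for HOXA9. The call of MEIS2 changed when either of 2 samples was left out. Without humerus non-affected 5 the difference was 1.49 with an adjusted p of 9.62e-04, and without humerus affected 7, which enters this comparison through the shared spread alone, it was 1.07 with 0.0489. Without humerus non-affected 5, MEIS1 differed by 0.78 with 0.0557 and HOXA9 by -0.42 with 0.202, both still short of the threshold, and 37.7% of probe sets were called. HOXA9 passed in 1 of the 21 fits that left out a sample, at -0.56 with 0.0491 without humerus non-affected 2. Over both statuses without humerus non-affected 5, MEIS2 differed by 1.61 (adjusted p = 2.82e-06), MEIS1 by 0.84 (adjusted p = 0.00230) and HOXA9 by -0.42 (adjusted p = 0.0411), with 52.9% called.

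In the affected samples alone, MEIS2 was higher in the femur by 1.72 ± 0.42 (SE), or 3.29-fold, with an adjusted p of 0.00346. MEIS1 was higher by 0.89 ± 0.32 (SE) with 0.0336, and HOXA9 differed by -0.43 ± 0.23 (SE) with 0.150. The background in this comparison was 38.5% called, 13.9% higher and 24.6% lower. The call of MEIS1 was lost when any of 5 samples was left out, and leaving out femur affected 1, which held the highest MEIS1 signal of all, gave 0.53 with an adjusted p of 0.183.

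**Figure D2:**
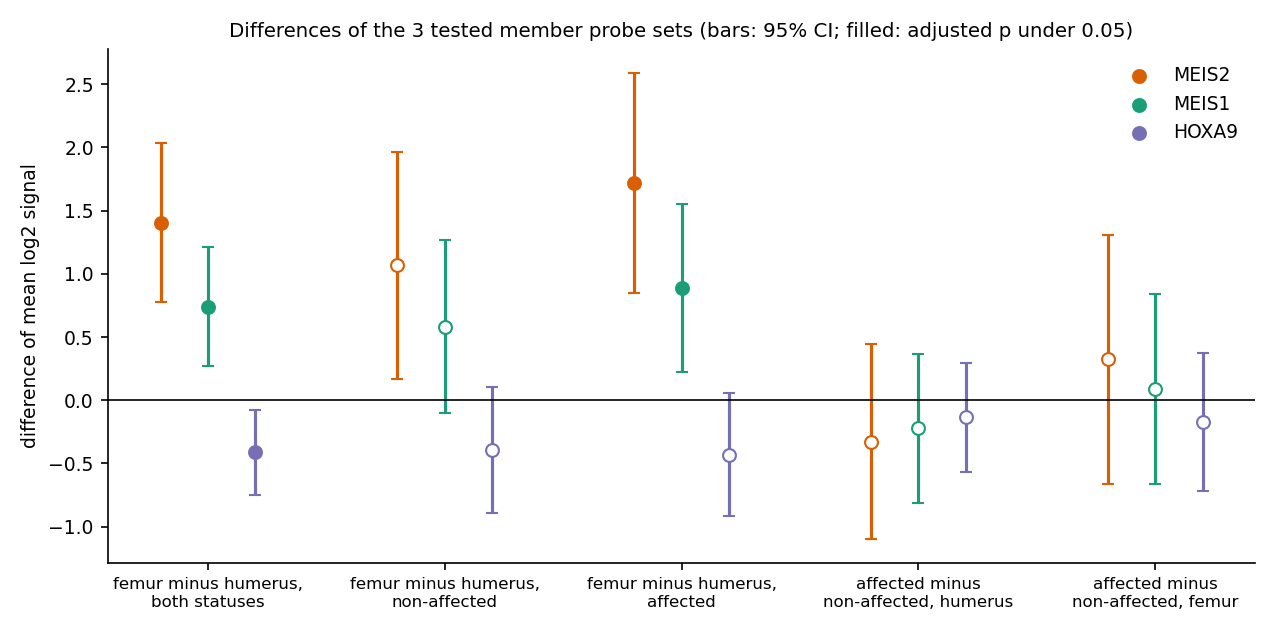
Differences of mean log2 signal for MEIS2, MEIS1 and HOXA9 in 5 comparisons, with 95% confidence intervals; filled points passed an adjusted p of 0.05. MEIS2 and MEIS1 lie above 0 and HOXA9 below 0 in the 3 comparisons of femur with humerus, and every interval of the 2 comparisons of status spans 0.

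The dimmer probe set of MEIS2 lay near the floor. Its mean over all samples was 4.97, under the 5.30 needed to be tested, with 1 sample at the floor. It read 4.99, 5.40, 5.44 and 6.05 in the non-affected femur and 5.27, 5.72, 5.85 and 5.96 in the affected femur. Its humeral samples ran from 4.046 over a median of 4.43 to 5.19 in the non-affected group and from 4.37 over a median of 4.58 to 5.02 in the affected group. For this probe set 7 of 8 femoral samples lay above every humeral sample, against 1 of 8 for the brighter one (7 of 8 there without humerus non-affected 5), and humerus non-affected 5 held the highest humeral value, 5.19. Fitted without the filter on low values, it differed between femur and humerus by 1.01 ± 0.15 (SE) over both statuses (adjusted p = 2.05e-05) and by 1.01 ± 0.21 (SE) in the non-affected samples (adjusted p = 0.00196). Without humerus non-affected 5 these differences of MEIS2 were 1.07 (adjusted p = 2.74e-06) and 1.15 (adjusted p = 3.57e-04). Both probe sets of MEIS2 therefore gave the same direction, and the dimmer one passed the threshold in non-affected samples with all samples kept. Of the 23999 probe sets fitted without the filter, 2210 were called higher and 4679 lower in that comparison. Over both statuses these counts were 3545 and 6754.

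The probe sets of MEIS1 did not give the same result. The brighter one read 6.61, 7.05, 7.57 and 7.90 in the non-affected femur and 6.32, 7.32, 7.38 and 8.45 in the affected femur. In the humerus it ran from 6.22 over a median of 6.59 to 7.67 in the non-affected group and from 5.94 over a median of 6.46 to 6.98 in the affected group. The sites overlapped, with 7 of 8 femoral samples above the humeral median and only 2 above every humeral sample. Without humerus non-affected 5, which read 7.67, 6 of 8 femoral samples lay above every humeral one. The group means were 7.28 ± 0.57 (SD, n = 4) in non-affected femur, 7.37 ± 0.87 (SD, n = 4) in affected femur, 6.70 ± 0.50 (SD, n = 6) in non-affected humerus and 6.48 ± 0.31 (SD, n = 7) in affected humerus. The order of the groups by level was that of MEIS2, and again only the step from femur to humerus exceeded the pooled SD. The dimmer one, with a mean of 4.88 and under the filter, ranged from 4.41 to 5.57 in the femur and from 4.47 to 5.18 in the humerus. It differed between the sites by 0.07 ± 0.14 (SE) without the filter (adjusted p = 0.725), and by 0.09 (adjusted p = 0.649) without humerus non-affected 5, so the difference of MEIS1 rests on 1 of its 2 probe sets.

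HOXA9 was read by a single, brighter probe set and differed least. Its values were 8.78, 9.05, 9.11 and 9.88 in the non-affected femur and 8.81, 8.92, 9.04 and 9.38 in the affected femur. They ran from 8.78 over a median of 9.68 to 10.1 in the non-affected humerus and from 9.10 over a median of 9.40 to 10.1 in the affected humerus. The sites overlapped, but only 1 of 8 femoral samples lay above the humeral median. The means were 9.60 ± 0.46 (SD, n = 6) in non-affected humerus, 9.47 ± 0.34 (SD, n = 7) in affected humerus, 9.21 ± 0.47 (SD, n = 4) in non-affected femur and 9.04 ± 0.24 (SD, n = 4) in affected femur, and no 2 neighbours in this order differed by more than their pooled SD. The call over both statuses was lost in 11 of the 21 fits that left out 1 sample, with differences from -0.51 to -0.35 and adjusted p up to 0.0850.

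No member passed the threshold for osteochondrosis status at either joint. In the humerus, affected minus non-affected was -0.33 for MEIS2 (confidence interval -1.10 to 0.45, adjusted p = 0.888), -0.22 for MEIS1 (-0.81 to 0.37, adjusted p = 0.899) and -0.13 for HOXA9 (-0.56 to 0.30, adjusted p = 0.921). No probe set passed in this comparison (0%), and 1100 of 16799 had an unadjusted p under 0.05 by limma. Without humerus non-affected 5 the difference of MEIS2 was 0.10, of the opposite sign. In the femur the difference was 0.32 for MEIS2 (-0.66 to 1.31, adjusted p = 0.732), 0.08 for MEIS1 (-0.67 to 0.84, adjusted p = 0.914) and -0.17 for HOXA9 (-0.72 to 0.38, adjusted p = 0.750), against 1.14% of probe sets called. The effect of status did not differ past the threshold between the joints: the difference of the differences was 0.65 for MEIS2 (-0.60 to 1.90, adjusted p = 0.554), 0.31 for MEIS1 (-0.65 to 1.26, adjusted p = 0.730) and -0.03 for HOXA9 (-0.73 to 0.66, adjusted p = 0.963), with 0.268% called. The intervals of MEIS2 hold a fall of 1 on the log2 scale in the humerus and a rise of 1 in the femur.

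Markers of bone and myeloid cells tended to be lower in the femur, where MEIS1 and MEIS2 signal was higher. All 8 femoral samples, at 11.3 to 12.6, had bone sums below those of every humeral sample other than humerus affected 7, at 12.03. The 2 humeral samples with the highest MEIS2 signal, humerus non-affected 5 and humerus affected 7, had the lowest bone sums of their joint, 13.5 and 12.03. The covariate used below is the mean of the list, not the sum. By that mean these 2 samples, at 7.45 and 8.40, lay within the femoral range of 6.51 to 9.77. Humerus non-affected 5 also had the lowest myeloid sum of the humerus, 8.65. The next lowest, humerus non-affected 1 at 9.89, had a low MEIS2 signal of 5.94. IBSP, a bone matrix protein, was at the floor in some femoral samples of both statuses and ALPL, alkaline phosphatase, in some non-affected ones. The myeloid genes FCER1G, TYROBP and AIF1 were at the floor in some affected femoral samples, and no defining marker was at the floor in every sample. With the mean of the bone list as a covariate, the difference between femur and humerus over both statuses was 0.44 for MEIS2 (adjusted p = 0.406) and 0.41 for MEIS1 (adjusted p = 0.382), and in non-affected samples it was 0.10 for MEIS2 (adjusted p = 0.892). With the myeloid list it was 0.85 for MEIS2 (adjusted p = 0.0502) and 0.26 for MEIS1 (adjusted p = 0.404). HOXA9 went the other way, at -0.85 (adjusted p = 0.00999) with the bone list. The dimmer probe set of MEIS2 kept a difference of 0.69 (adjusted p = 0.0251) with the bone list and 0.85 (adjusted p = 0.00157) with the myeloid list, both without the filter. Over both statuses these lists themselves differed between the joints, though their sums overlapped. Their part in the site differences therefore cannot be told apart from site.

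**Figure D3:**
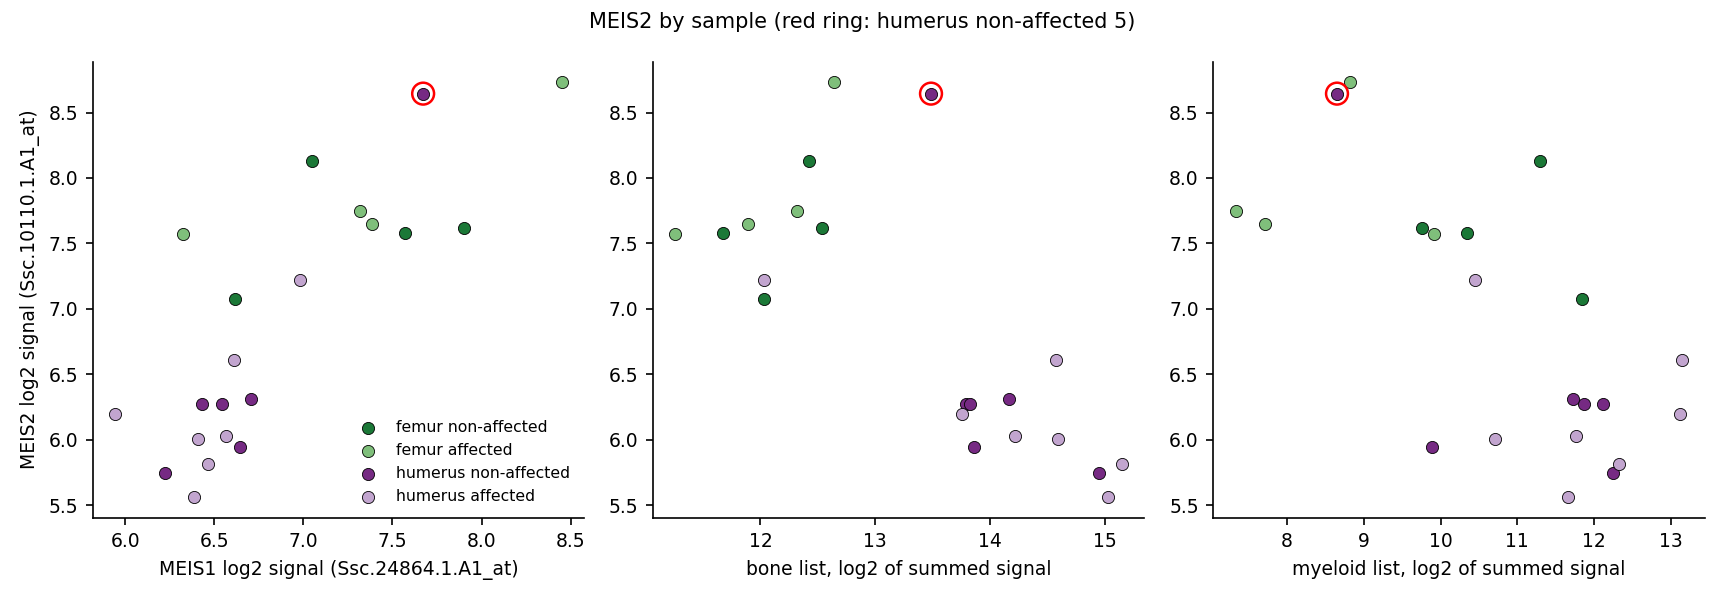
MEIS2 signal (brighter probe set) in 21 samples against MEIS1 signal, the bone list and the myeloid list, the lists as log2 of their summed signal; colours are the 4 groups. The femoral samples combine high MEIS2 with bone sums of 11.3 to 12.6, and the ringed sample, humerus non-affected 5, has the highest humeral MEIS2 at a bone sum of 13.5.

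Within a joint, MEIS1 and MEIS2 varied together in the humerus. Over the 13 humeral samples Pearson's r was 0.869 (permutation p = 0.00298, adjusted 0.0179 over the 6 pairs computed) and Spearman's rho was 0.692 (permutation p = 0.0111, adjusted 0.0665). Without the 2 samples farthest from the median of MEIS1, humerus non-affected 5 and humerus affected 2, r was 0.828. Over the 8 femoral samples r was 0.663 (exact permutation p = 0.0781, adjusted 0.234) and rho was 0.524 (exact permutation p = 0.197, adjusted 0.295), and r without the 2 farthest samples was 0.317. HOXA9 passed the adjusted threshold with neither gene at either joint: r was 0.367 with MEIS1 and 0.285 with MEIS2 in the humerus, and 0.045 and -0.18 in the femur, with adjusted p from 0.429 to 0.904 and rho from -0.17 to 0.566 with adjusted p from 0.107 to 0.977. For the pairs with HOXA9, the 2 samples farthest from the median of the MEIS gene were left out, so they differ between MEIS1 and MEIS2. Without them, r of HOXA9 with MEIS1 was 0.632 in the humerus and 0.801 in the femur. With MEIS2 it was 0.458 and -0.33, so these r values depend on the samples left out. The 2 probe sets of MEIS2 correlated at 0.594 in the humerus and 0.085 in the femur, and those of MEIS1 at 0.521 and 0.615, which is a description only.

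The genes most like each member across the 21 samples were found among 8071 tested and named probe sets by Pearson's r. Each gene was listed once, by its probe set with the highest r. These r values share libraries and the site difference, and are descriptions. For MEIS2 they were LOC100621480 (0.901), CPN1 (0.895), CHI3L1 (0.879), ZRSR2 (0.875) and TNC (0.873), the last an extracellular matrix protein, tenascin-C. For MEIS1 they were PDZRN3 (0.857), JOSD1 (0.843), DDX49 (0.826), MEIS2 itself (0.819) and ZNF385D (0.806). MEIS1 stood 34th among the probe sets in the order for MEIS2, and for HOXA9 the nearest were EXOSC7 (0.819), CDO1 (0.818), FTSJ3 (0.815), AKTIP (0.776) and TMEM26 (0.773). After the 4 group means were removed, AREG, an EGF-family ligand (0.863), FGF18 (0.805), RCAN1 (0.803), CPN1 (0.801) and HIF1A (0.797) stood nearest MEIS2. PDZRN3 (0.820), SLC25A14 (0.811), JOSD1 (0.808), DDX49 (0.805) and PTHLH, the parathyroid hormone-like ligand of growth cartilage (0.746), stood nearest MEIS1. All 5 genes nearest MEIS2 by residuals read higher in humerus non-affected 5 than in any other sample; AREG, for example, read 8.49 there, 4.89 to 5.87 in the other humeral samples and 5.52 to 6.26 in the femur. Without that sample, a step chosen after seeing the data, the r of the residuals with MEIS2 was 0.616 for AREG, 0.690 for FGF18, 0.719 for RCAN1, 0.475 for CPN1 and 0.574 for HIF1A over 20 samples. For the 5 genes nearest MEIS1 it was then 0.692 to 0.829. For HOXA9 the nearest residuals were those of MEG3 (0.885), AQP3 (0.815), TMEM26 (0.797), CYP2A19 (0.788) and EXOSC7 (0.788).

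Other genes of limb patterning were taken as a list of 129 symbols, of which 27 were named on the array and 24 were tested, each by its brightest probe set. PITX1, TBX4 and TBX5, the regulators of hindlimb and forelimb identity, carried no name in the platform annotation and were not analysed here. Over both statuses 5 of the 24 were higher and 5 lower in the femur, or 9 and 4 with equal array medians, against 17.6% higher and 34.2% lower of all tested probe sets, with a median difference of 0.17 against -0.12 for all tested probe sets. Without humerus non-affected 5 the counts were again 5 and 5. In non-affected samples 3 were higher and 3 lower, or 5 and 1 with equal array medians and 4 and 3 without humerus non-affected 5, against 11.6% higher and 25% lower of all tested probe sets. In affected samples 4 of the 24 were higher and 5 lower, against 13.9% higher and 24.6% lower of all tested probe sets. Neither status comparison called any of the 24, against 0% of all tested probe sets in the humerus and 1.14% in the femur. Once the mean of the bone list entered the fit over both statuses, 1 of the 24 was called higher, RXRA at 0.48 (adjusted p = 0.0174), and 2 lower, CYP26A1 at -0.95 (adjusted p = 0.0205) and HOXD12. In that fit 1286 of the 16799 tested probe sets were called higher and 3378 lower.

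Among the TALE partners (3 tested), PKNOX2, a relative of MEIS that binds PBX proteins, was higher in the femur by 1.47 ± 0.26 (SE; adjusted p = 1.45e-04), ranging from 7.03 to 8.64 there and from 5.30 to 8.29 in the humerus. Its highest humeral value was that of humerus non-affected 5. PBX2, a partner of both MEIS and HOX proteins, differed by 0.18 (adjusted p = 0.311), and TGIF1 by 0.12 (adjusted p = 0.434). In non-affected samples PKNOX2 was again higher, by 1.48 (adjusted p = 0.00639), or by 1.77 (adjusted p = 7.81e-04) without humerus non-affected 5. It differed by 0.51 there once the bone list entered the fit (adjusted p = 0.316).

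Of the 4 other HOXA and HOXD genes tested, 0 were higher and 1 was lower in the femur, over both statuses and in non-affected samples. Of all tested probe sets, 51.8% were called over both statuses and 36.6% in non-affected samples. HOXD12, a late gene of the distal limb, was lower in the femur, at -1.81 ± 0.27 (SE; adjusted p = 2.86e-05). It ran from 4.12 to 7.13 in the 8 femoral samples and from 7.15 to 8.19 in the 13 humeral samples, so the joints did not overlap. How often other tested probe sets show no overlap was not computed. Humerus non-affected 5 read 7.34, within the humeral range, unlike its MEIS1, MEIS2 and PKNOX2 values. With the bone list as a covariate HOXD12 differed by -2.21 over both statuses (adjusted p = 0.00134). In non-affected samples, fitted without a covariate, HOXD12 differed by -2.24 (adjusted p = 3.25e-04). A second, dim probe set of HOXD12 differed by 0.26 without the filter (adjusted p = 0.122), so this result also rests on 1 probe set. HOXB7, of the HOXB cluster, was lower in the femur, at -0.76 ± 0.20 (SE; adjusted p = 0.00306), and in non-affected samples at -0.75 (adjusted p = 0.0463), or -0.96 without humerus non-affected 5. This is the brighter of its 2 probe sets, with a mean of 5.47, close to the filter at 5.30. Humerus non-affected 5 held the lowest humeral value of HOXB7, 4.57, within the femoral range of 4.21 to 5.82. HOXA3 at 0.31 (adjusted p = 0.190), HOXD8 at 0.17 (adjusted p = 0.481) and HOXD10 at 0.28 (adjusted p = 0.228) did not pass over both statuses.

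Of the 7 tested genes that handle retinoic acid, 2 were higher and 2 lower in the femur, with 51.8% of all probe sets called. In non-affected samples 1 was higher and 1 lower, or 2 and 1 without humerus non-affected 5, against 11.6% higher and 25% lower of all tested probe sets. CRABP2, which carries retinoic acid within the cell, was higher by 0.84 ± 0.19 (SE; adjusted p = 0.00111), and the retinoid receptor RXRA by 0.31 ± 0.10 (SE; adjusted p = 0.0105). CYP26A1, which degrades retinoic acid, was lower, at -0.96 ± 0.18 (SE; adjusted p = 2.70e-04), and the retinol carrier RBP4 at -0.98 ± 0.32 (SE; adjusted p = 0.0159). In non-affected samples RXRA was higher by 0.53 (adjusted p = 0.00303) and CYP26A1 lower, at -0.82 (adjusted p = 0.0217), a call that CYP26A1 lost with equal array medians (-0.64, adjusted p = 0.0613). CRABP2 differed there by 0.67 (adjusted p = 0.0598), or by 0.77 (adjusted p = 0.0357) without humerus non-affected 5, and RBP4 by -0.51 (adjusted p = 0.391). A second probe set of RBP4 differed by -0.02 over both statuses (adjusted p = 0.932).

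Of the remaining lists, FGFR2, a receptor for fibroblast growth factors, was higher in the femur by 0.60 ± 0.15 (SE; adjusted p = 0.00229). It was the only one called of the 5 tested genes of limb bud signalling, with 51.8% of all probe sets called. TBX2, a T-box factor, was higher by 0.40 ± 0.12 (SE; adjusted p = 0.00928), and a second of its 3 probe sets by 0.03 (adjusted p = 0.905). MSX1, a homeobox gene of the limb edge, was lower, at -0.34 ± 0.11 (SE; adjusted p = 0.0142), and differed by -0.17 (adjusted p = 0.198) with equal array medians. Neither TBX2, at 0.21 (adjusted p = 0.332 by limma), nor MSX1, at -0.32 (adjusted p = 0.131), passed in non-affected samples. DLX5 at -0.23 (adjusted p = 0.339) and PRRX1 at -0.29 (adjusted p = 0.246) did not pass over both statuses. In affected samples DLX5 was lower in the femur, at -0.70 ± 0.23 (SE; adjusted p = 0.0230). In non-affected samples its difference had the opposite sign, at 0.27 (adjusted p = 0.387).

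**Figure D4:**
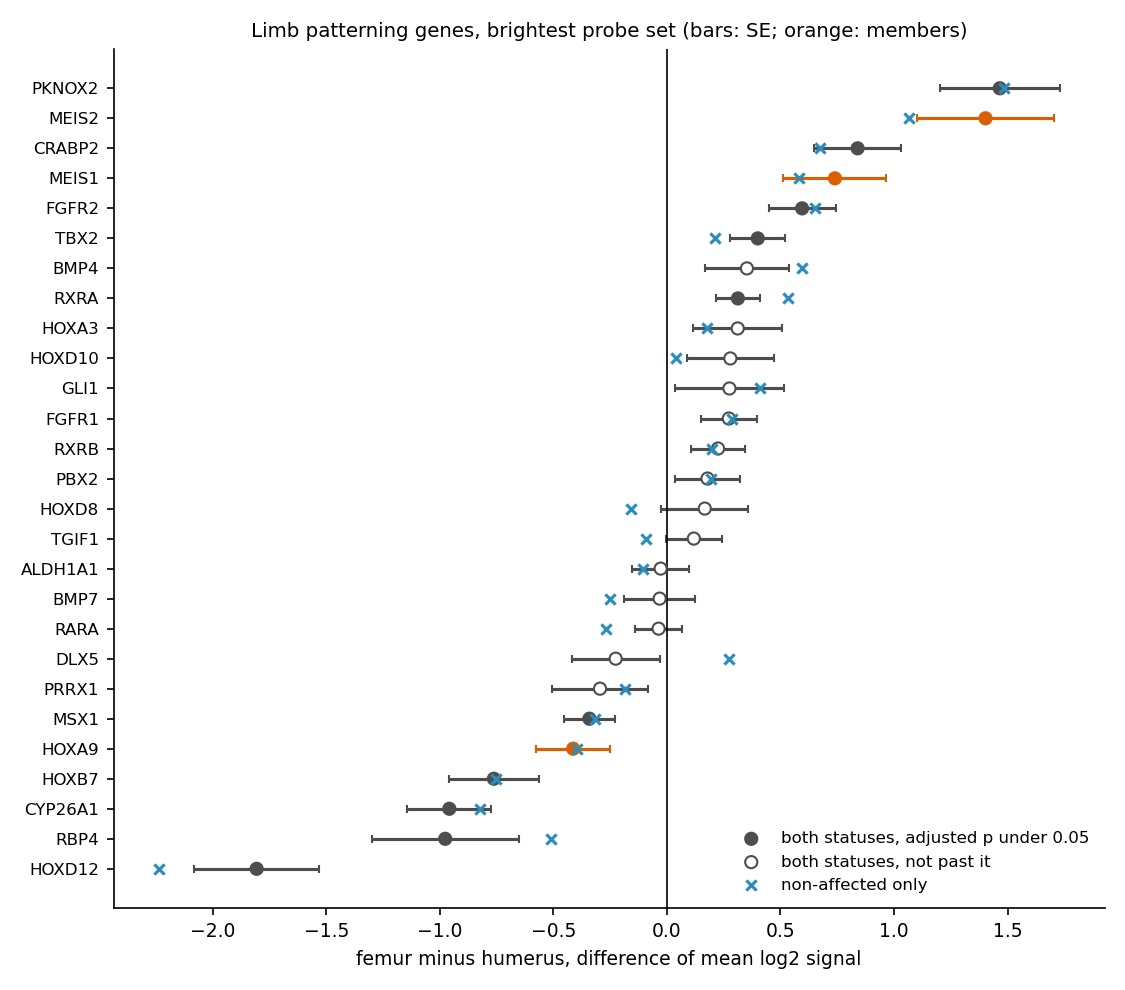
Femur minus humerus difference of mean log2 signal for 27 limb patterning genes tested, the 3 members in orange; bars are SE, filled points passed an adjusted p of 0.05 over both statuses and crosses give the non-affected samples alone. PKNOX2 and MEIS2 lie farthest to the femoral side, at 1.47 and 1.40, and HOXD12 farthest to the humeral side, at -1.81.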

How the data were processed

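The deposited table holds 1 log2 value per probe set and array, from 4.00 to 17.6. The submitters' processing notes name GCOS 1.1.1, and how the arrays were normalised was not given in the sources used here. Log2 values were used as deposited. The precision is limited by the number of arrays. RNA was extracted with TRI Reagent and hybridised as biotin-labelled cRNA, per the labels' protocols. Gene names came from the platform annotation, in which 10099 probe sets have 1 symbol, 198 several, and 13826 were unnamed here. For 3 of the 5 member probe sets the gene ID carried the same symbol in RefSeq's gene table.

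Arrays of a group whose difference had an SD under 0.25 were averaged. The 124 control probe sets, and 7200 with a mean under the 30th percentile (5.30), were left out of the tests, which leaves 16799; 3 of the 5 member probe sets passed. limma 3.58.1 (lmFit, eBayes; R 4.3.3) fitted site plus status for the comparison over both statuses and 4 group means for the others, with Benjamini-Hochberg adjustment over all tested probe sets and a threshold of 0.05. The script was tested on simulated data. A value under 4.05 counts as at the floor. Correlations used permutation tests within each joint (100000 resamples in the humerus, exact in the femur), two-sided, for the brightest probe set per gene. List genes are those called past the threshold by the brightest probe set, with up to 10 named per site comparison, and 5 genes are named for likeness to each member. The members and lists were chosen with earlier results of these data known. Alternatives were other filters, scalings, floors and variance models, array weights, all 23 arrays, marker covariates and leaving out each sample.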

Additional observations from a re-analysis of the deposited data

Results flagged for a closer look

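Of 20 combinations of a group and a member probe set, 3 had an extreme sample farther from the rest than Dixon's 95% critical value, where chance gives about 1 in 20. In the non-affected humerus, humerus non-affected 5 was the highest for MEIS1, at 7.672, and for MEIS2, at 8.644. In the affected femur, femur affected 1 was the highest for MEIS2, at 8.731. All 3 are values of the brighter probe set of the gene.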

How the results depend on the processing

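Of the member differences, MEIS2 and MEIS1 over both statuses, and MEIS2 in affected samples, kept direction and call in all 21 fits that left out 1 sample and under all other settings apart from the bone and myeloid covariates. HOXA9 over both statuses fell short of the threshold with 23 arrays (-0.34, adjusted p = 0.0710), equal medians (-0.24), quantile normalisation (-0.29) and the skeletal muscle covariate (-0.34). The muscle list, which summed to 7.48 to 11.2 in the femur and 7.21 to 11.7 in the humerus, had 4 of 5 tested genes higher in the femur. With the bone covariate, MEIS1 over both statuses was 0.41, MEIS2 0.44 and 4664 probe sets were called; in affected samples MEIS1 was 0.56, MEIS2 0.76, HOXA9 -0.86 (now called) and 2717 were called; HOXA9 in non-affected samples was -0.83 (adjusted p = 0.0291). With the myeloid covariate, MEIS1 over both statuses was 0.26 and MEIS2 0.85, and in affected samples MEIS1 was -0.13, MEIS2 0.71 and 420 probe sets were called. That covariate also turned the sign of differences that were not called: MEIS1 by status was 0.026 in the humerus and -0.52 in the femur, MEIS2 -0.28 in the femur, and for site by status MEIS1 was -0.55 and MEIS2 -0.20. In non-affected samples MEIS2 passed with 23 arrays (1.07, adjusted p = 0.0318), equal medians (1.25), quantile normalisation (1.24) and array weights (1.24), and MEIS1 with the muscle covariate (0.91). Uncalled signs also turned for MEIS1 by status in the femur with 23 arrays (-0.038) and HOXA9 for site by status with array weights (0.034). Counts for status in the femur were 621 with 23 arrays, 59 with array weights, 4 with the femoral groups fitted alone, 880 with the bone and 82 with the myeloid covariate, and for site by status 224, 21 (array weights), 283 and 5. Leaving out each sample gave the following ranges, for every member whose call, sign or size (by over 1.5 times) changed. Over both statuses HOXA9 ran from -0.51 to -0.35. In non-affected samples HOXA9 ran from -0.62 to -0.25, MEIS1 from 0.38 to 0.80 and MEIS2 from 0.89 to 1.49. In affected samples MEIS1 ran from 0.53 to 1.24. For status, MEIS2 in the humerus ran from -0.50 to 0.10, MEIS1 from -0.32 to -0.029 and HOXA9 from -0.30 to -0.044, and in the femur MEIS2 ran from 0.055 to 0.50, HOXA9 from -0.31 to 0.055, MEIS1 from -0.28 to 0.43 and the count from 53 to 450. For site by status HOXA9 ran from -0.18 to 0.19, MEIS1 from -0.052 to 0.66, MEIS2 from 0.23 to 0.83 and the count from 15 to 98. The cause of these changes was not tested. No paired analysis was possible because the labels give no numbers that tie sibs. The low signal of the second MEIS1 and MEIS2 probe sets, near the floor, limits what they can show, and 4 samples in each femoral group limit the status comparisons.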
